A study of Mus musculus with 12 samples.

Results

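The loss of Llgl1 and Llgl2 in skin that had also lost a Trp53 allele was examined in newborn mouse epidermis. The comparison set 3 libraries of the group called Llgl/Trp53 mutant here (Llgl cKO Trp53 het in the plots) against 3 libraries of the group called Trp53 het, 6 of the 12 libraries of the study, chosen by their labels alone. The Llgl/Trp53 mutant mice carried K14-Cre with floxed alleles of Llgl1 and Llgl2 and a Trp53 +/flox genotype. The Trp53 het mice carried K14-Cre and Trp53 +/flox. Both compared groups therefore shared the Cre transgene and the heterozygous floxed Trp53, and the Llgl alleles set them apart. The K14 promoter drives Cre in basal keratinocytes of stratified epithelia, including the cells that give rise to hair follicles and sebaceous glands, and other cells in the tissue should keep intact alleles. The other 6 libraries, 3 Control (K14-Cre) and 3 Llgl cKO (K14-Cre with floxed Llgl1 and Llgl2), entered the fit and gave the same Llgl comparison with both Trp53 alleles intact. By the stated design 3 newborn mice were taken per group, and whole epidermis was used, so transcripts of hair follicles, glands and resident immune cells are mixed with those of the epidermal layers.

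Llgl1 and Llgl2 are mammalian homologues of Drosophila lethal giant larvae, which restricts the apical aPKC and Par complex to keep basolateral identity, and which acts as a tumour suppressor in flies. In newborn skin the hair follicles are still growing down and begin to build the hair shaft. Matrix cells at the base of the follicle turn into cortex and cuticle cells, which fill with hair keratins and keratin-associated proteins, and into inner root sheath cells, which fill with trichohyalin and their own keratins. Sebaceous glands form on the upper follicle and fill with wax esters, triglycerides and sterol esters.

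Values are CPM, gene counts scaled to a common library size after TMM normalisation, given for replicates 1 to 3 in order, and changes are log2 fold changes of Llgl/Trp53 mutant minus Trp53 het with a standard error (SE). A gene was called, and is said to have risen or fallen, where the adjusted p of edgeR's quasi-likelihood test was below 0.05 over the 14582 genes tested. Libraries held 6901424 to 12742531 counts, with Trp53 het 2 the shallowest. The library labelled Trp53 het 3 stood apart from its group. On the first principal component of log2 CPM, which held 44.6% of the variance, Trp53 het 1 and 2 were at -52.6 and -46.9, the library labelled Trp53 het 3 at 6.89, and the Llgl/Trp53 mutant libraries at 34.7, 45.4 and 55.3. Control 3 differed from its group in the same way. By X- and Y-linked transcripts the library labelled Trp53 het 3 and Llgl/Trp53 mutant 1 were the females of the 6 libraries. Keratinocyte markers were abundant throughout: Krt14, the keratin of basal cells, was at 4984, 5521 and 4519 CPM in Trp53 het and 4559.7, 5412 and 4837 CPM in Llgl/Trp53 mutant.

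The targeted genes were read first. Llgl2 (ENSMUSG00000020782, chromosome 11, 115824049 to 115855780, GRCm38) was at 109, 97.1 and 66.5 CPM in Trp53 het and at 6.12, 12.4 and 7.03 CPM in Llgl/Trp53 mutant. The groups were far apart, and Llgl2 fell, with a log2 change of -3.42 ± 0.30 (SE, adjusted p = 0.000385). Llgl1 (ENSMUSG00000020536, chromosome 11, 60699723 to 60714186) was at 140.3, 137 and 122 CPM in Trp53 het and 187, 248 and 211 CPM in Llgl/Trp53 mutant. Every Llgl/Trp53 mutant library was above every Trp53 het library for Llgl1, with a log2 change of 0.69 ± 0.17 (SE) that was not called (adjusted p = 0.0723). Whole-gene counts do not show whether the floxed exons are missing, so for Llgl1 they do not check the label. Trp53 (ENSMUSG00000059552, chromosome 11, 69580359 to 69591873) was at 61.8, 60.9 and 115 CPM in Trp53 het and 98.3, 67.8 and 65.9 CPM in Llgl/Trp53 mutant. It was at 130.5, 109 and 123 CPM in Control and 120.5, 122 and 112 CPM in Llgl cKO. Trp53 het 1 and 2 and all 3 Llgl/Trp53 mutant libraries were below all 6 libraries with intact Trp53. Llgl/Trp53 mutant 1 was nearer to those 6 than to its own group. The library labelled Trp53 het 3 was within the range of the 6 intact libraries, which goes against its heterozygous label. Across all genes tested the library labelled Trp53 het 3 had the highest correlation of any pair of libraries, with Control 3 (Pearson r of log2 CPM 0.993, over genes, which are not independent). These libraries were also close on the first principal component (6.89 and 11.3) and the second (-46.7 and -43.9). Whether the Trp53 het 3 label is right was not tested. Every direction given below that rests on the Trp53 het group includes this library unless it is said to be left out. The change of Trp53 between the compared groups, which overlapped, was -0.04 ± 0.23 on the log2 scale (SE, adjusted p = 0.964).

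Of the 14582 genes tested, 198 were called (1.36%), 64 higher (0.439%) and 134 lower (0.919%). The lower calls were led by genes that build hair, by sebaceous gland genes and by a small set of genes that were low in every Llgl-deficient library. Higher calls had a median log2 change of 1.26, lower calls -3.02, and the higher calls included Wnt and BMP ligands. The hair and sebaceous lists held 35 of the 134 lower calls (26.1%), and 89 lower and 55 higher calls were in no list. Over all genes tested the median log2 change was 0.00. The groups did not overlap for 2976 genes (20.4%), 1422 of them above (9.75%) and 1554 below (10.7%). Of the genes tested, 2240 (15.4%) had an unadjusted p below 0.05 by edgeR, the share to set beside the list counts given below. DESeq2 called 264 higher and 458 lower of the 14582 genes, the numbers to set beside its list counts. Across 5 lists of hair structural genes, 25 of 86 tested members were lower calls and 0 were higher, and 72 of the 86 had every Llgl/Trp53 mutant library below every Trp53 het library.

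Type I hair keratins, the acidic keratins of the shaft, were led by cortical members: 7 of 9 fell, all 9 were below without overlap, and the median log2 change was -4.68. Krt33b (ENSMUSG00000057723, chromosome 11, 100023634 to 100029868), a keratin of the hair cortex, was at 32.04, 18.02 and 10.1 CPM in Trp53 het and 1.099, 0.0854 and 0.167 CPM in Llgl/Trp53 mutant. Krt31, another cortical keratin, was at 50.8, 31.98 and 15.3 CPM against 3.92, 1.28 and 1.34 CPM. Krt34 was at 59.1, 42.6 and 10.7 CPM against 1.18, 0.683 and 0.586 CPM. In all 3 genes the lowest Trp53 het library was replicate 3 and the highest Llgl/Trp53 mutant library was replicate 1, and a wide gap remained between those 2 libraries. The log2 changes were -5.40 ± 1.02 (SE, adjusted p = 0.0369) for Krt33b, -3.88 ± 0.76 (adjusted p = 0.0411) for Krt31 and -5.49 ± 1.08 (adjusted p = 0.0415) for Krt34. Krt40, Krt33a, Krt39 and Krt36 also fell, with log2 changes of -6.52, -4.78, -4.68 and -3.14. The remaining members, Krt32 of the hair cuticle and Krt35 of the early shaft, had log2 changes of -1.52 and -1.45 and were not called (adjusted p = 0.1 and 0.167). Krt35 was at 38.2, 54.8 and 77.5 CPM in Trp53 het and 29.9, 16.6 and 16.1 CPM in Llgl/Trp53 mutant, and here the library labelled Trp53 het 3 was the highest of its group.

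Promoter sequences are shown for 5 of the called genes because they come from the 5 hair structural lists, whose members moved together, and the letters just before their starts can be compared. Each run is the 250 bases before the annotated start on the gene's own strand, from RefSeq (GRCm38.p6), and capitals mark a TATAAA run, as in the TATA box, or the runs CTTTGAA and CTTTGAT, to which LEF1 and TCF factors of the Wnt pathway can bind, on either strand. They are Krt33b (chr11:100029869-100030118, minus strand), Krt82 (chr15:101550660-101550909, minus strand), Krtap24-1 (chr16:88612280-88612529, minus strand), Krt26 (chr11:99337966-99338215, minus strand) and Tchh (chr3:93442080-93442329, plus strand).
Krt33b: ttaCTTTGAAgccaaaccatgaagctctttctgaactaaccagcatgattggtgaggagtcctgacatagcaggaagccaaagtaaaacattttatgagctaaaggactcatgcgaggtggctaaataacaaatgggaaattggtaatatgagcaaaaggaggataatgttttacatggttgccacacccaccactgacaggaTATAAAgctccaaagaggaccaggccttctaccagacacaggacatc
Krt82: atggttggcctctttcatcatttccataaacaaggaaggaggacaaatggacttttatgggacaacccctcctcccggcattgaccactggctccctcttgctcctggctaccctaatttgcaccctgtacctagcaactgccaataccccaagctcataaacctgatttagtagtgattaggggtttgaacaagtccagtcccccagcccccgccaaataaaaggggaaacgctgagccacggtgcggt
Krtap24-1: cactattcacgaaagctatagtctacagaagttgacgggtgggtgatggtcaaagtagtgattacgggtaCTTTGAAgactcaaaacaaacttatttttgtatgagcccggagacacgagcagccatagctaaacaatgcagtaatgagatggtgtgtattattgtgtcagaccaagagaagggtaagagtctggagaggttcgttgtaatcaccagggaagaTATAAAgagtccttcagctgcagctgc
Krt26: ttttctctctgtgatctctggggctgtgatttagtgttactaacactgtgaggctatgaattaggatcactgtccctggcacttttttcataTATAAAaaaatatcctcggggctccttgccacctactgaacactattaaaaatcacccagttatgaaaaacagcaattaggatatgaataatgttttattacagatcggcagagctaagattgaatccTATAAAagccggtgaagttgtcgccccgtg
Tchh: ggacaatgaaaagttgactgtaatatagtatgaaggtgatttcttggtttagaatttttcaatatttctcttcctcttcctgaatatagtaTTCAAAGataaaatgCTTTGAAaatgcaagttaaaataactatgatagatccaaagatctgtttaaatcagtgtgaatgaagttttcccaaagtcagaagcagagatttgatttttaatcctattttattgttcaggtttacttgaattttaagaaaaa
Krt33b and Krtap24-1 each held a TATAAA run near the start, at positions -47 and -27 counted back from it, together with a CTTTGAA run, Krt26 held TATAAA at more than 1 place, Tchh held CTTTGAA on both strands and Krt82 held none of these letters. Shares were counted in windows from 250 bases before to 50 bases after the start, over any promoter entry of a gene. TATAAA was found in 15 of the 21 lower calls with a promoter entry from the hair lists (71.4%), here with the matrix and stem cell lists added. Among tested genes of those lists with an entry it was in 56 of 91 (61.5%). It was found in 999 of all 10440 tested genes with an entry (9.57%) and in 15.7% of all 27025 genes of the promoter table. The LEF1 and TCF runs were in 7 of the 21 (33.3%), 21 of the 91 (23.1%) 771 of the 10440 (7.39%) and 9.88% of the whole table. Hair keratin and keratin-associated protein genes are families of related sequence, so these promoters are not independent, and a match is a description of letters, not of a bound factor.

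Type II hair keratins, the basic partners of the type I chains, included 4 lower calls among 5 members tested (median -4.51). Krt82 (ENSMUSG00000049548, chromosome 15, 101541214 to 101550667), of the hair cuticle, was at 23.2, 20.8 and 9.11 CPM in Trp53 het and 1.41, 0.256 and 0.586 CPM in Llgl/Trp53 mutant. Krt81 was at 66.8, 51.7 and 15.6 CPM against 2.904, 0.683 and 0.754 CPM. Krt83 was at 55.4, 44.04 and 18.97 CPM against 4.79, 1.11 and 2.09 CPM. Neither these nor Krt86 overlapped between groups, and their log2 changes ran from -5.21 to -3.87, with -4.51 ± 0.78 (SE, adjusted p = 0.0315) for Krt82, -4.92 ± 0.94 (adjusted p = 0.039) for Krt81 and -3.87 ± 0.77 (adjusted p = 0.0438) for Krt83. Krt84 went the other way at a low level, with 0.185, 0.291 and 0.151 CPM in Trp53 het and 1.18, 2.903 and 1.17 CPM in Llgl/Trp53 mutant, and was not called (log2 change 3.08 ± 0.95 SE, adjusted p = 0.144).

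Keratin-associated proteins, which cross-link keratin filaments in the shaft, had the lowest median of the hair lists. Of 49 tested members 6 fell and 0 rose, 48 had a negative log2 change, 42 were below without overlap and the median was -5.75. Krtap16-1 was at 44.3, 33.6 and 8.96 CPM in Trp53 het and 1.18, 0 and 0.167 CPM in Llgl/Trp53 mutant. Krtap24-1 was at 14.96, 11.5 and 4.22 CPM against 0.471, 0 and 0 CPM. Krtap4-1 was at 22.4, 15.1 and 3.99 CPM against 0.157, 0 and 0 CPM, a ratio of summed counts of 235 (exact 95% binomial interval 64.6 to 1946, which covers counting error only). Each of these was at or near 0 in Llgl/Trp53 mutant 2 and 3 and higher in replicate 1, and the library labelled Trp53 het 3 was the lowest of its group. Their log2 changes were -5.93 ± 1.18 (SE, adjusted p = 0.0438), -5.87 ± 1.14 (adjusted p = 0.0399) and -7.71 ± 1.51 (adjusted p = 0.0409). Krtap3-1, Krtap4-8 and Krtap26-1 also fell, with log2 changes of -6.12, -6.32 and -5.49. Krtap3-2 was the exception, at 42.8, 37.5 and 14.00 CPM in Trp53 het and 46.4, 64.9 and 47.1 CPM in Llgl/Trp53 mutant, and was not called (log2 change 0.75 ± 0.52 SE, adjusted p = 0.552). Members of this family share sequence, so counts of single members are uncertain.

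The inner root sheath and companion layer, which surround and guide the growing shaft, showed the same direction. Of 9 keratins tested, 4 fell, all 9 were below without overlap, and the median was -3.96. Krt26 (ENSMUSG00000075570, chromosome 11, 99328550 to 99337966), of the inner root sheath, was at 109, 97.8 and 36.4 CPM in Trp53 het and 6.04, 1.71 and 1.26 CPM in Llgl/Trp53 mutant. Krt27 was at 718, 566 and 216 CPM against 49.9, 12.8 and 13.1 CPM. Krt25 was at 903, 765 and 410.1 CPM against 94.4, 18.8 and 20.4 CPM. Levels in Llgl/Trp53 mutant 1 were several times those in replicates 2 and 3 but still below the lowest Trp53 het library. The log2 changes were -4.73 ± 0.88 (SE, adjusted p = 0.0365) for Krt26, -4.30 ± 0.87 (adjusted p = 0.0457) for Krt27 and -3.96 ± 0.81 (adjusted p = 0.0465) for Krt25, and Krt71 also fell (-4.58). The other 5 had log2 changes from -5.12 for Krt72 to -2.09 for Krt73, and the companion layer keratin Krt75 had -2.63 (adjusted p = 0.0986).

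Non-keratin proteins of hair differentiation held 4 lower calls among 14 tested members, 8 of which were below without overlap (median -2.18). Tchh (ENSMUSG00000052415, chromosome 3, 93442330 to 93449077) encodes trichohyalin, the granule protein of the inner root sheath and medulla, and was at 1847, 1480.2 and 650.1 CPM in Trp53 het and 101, 43.8 and 60.5 CPM in Llgl/Trp53 mutant. Padi3, a deiminase that modifies trichohyalin, was at 121, 103 and 54.2 CPM against 15.7, 5.29 and 8.29 CPM. Crym, which encodes a thyroid hormone-binding crystallin, was at 59.6, 53.5 and 22.2 CPM against 5.101, 0.769 and 1.76 CPM. No group overlapped for these 3, with log2 changes of -4.28 ± 0.75 (SE, adjusted p = 0.0322), -3.24 ± 0.65 (adjusted p = 0.0444) and -4.12 ± 0.85 (adjusted p = 0.0471). S100a3, a calcium-binding protein of the hair cuticle, also fell (-3.56). The transglutaminase Tgm3 had a log2 change of 0.12 and the lipase Liph 0.07, neither called (adjusted p = 0.929 and 0.938).

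**Figure D1:**
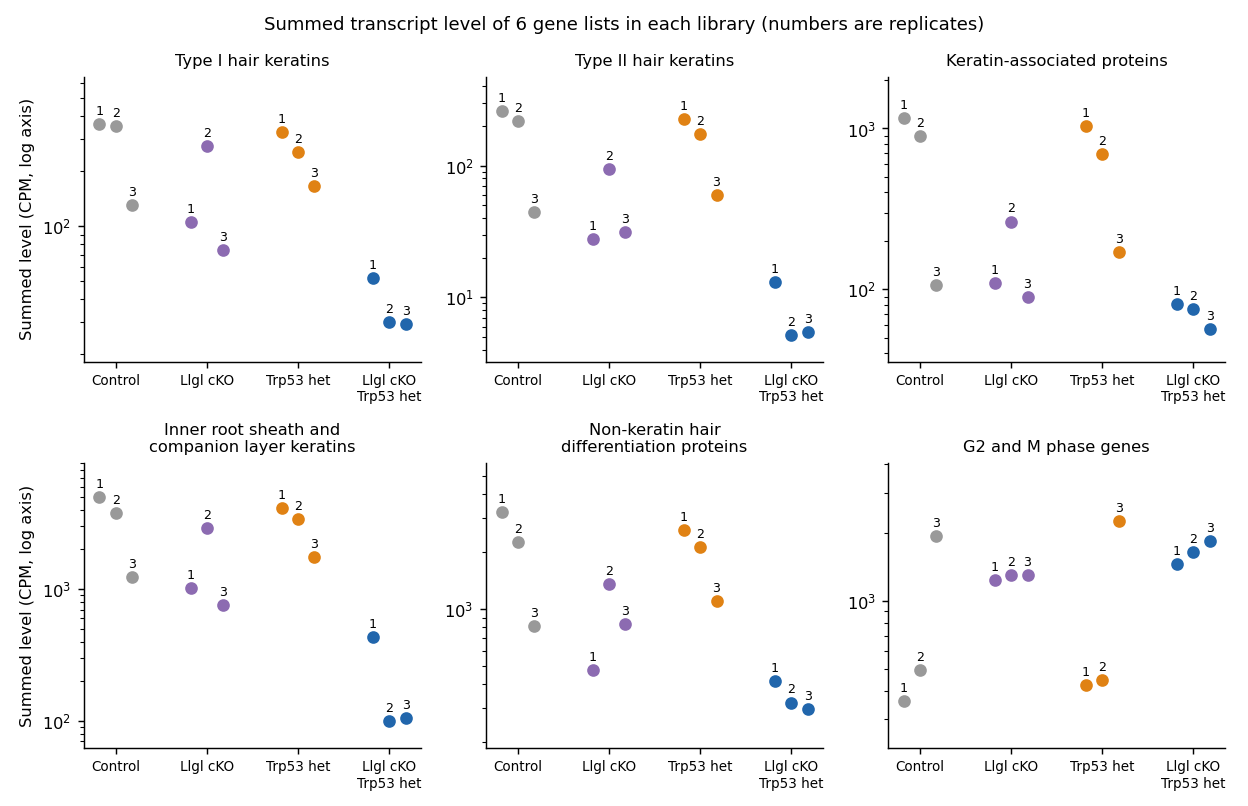
Summed CPM (log axis) of 6 gene lists in each of the 12 libraries, with a point per library labelled by its replicate number. In the 5 hair lists the 3 Llgl/Trp53 mutant libraries lie below the 3 Trp53 het libraries, and in the G2 and M phase list the library labelled Trp53 het 3 lies above all of them at 2250.5 CPM.

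Summed over each of the 5 hair structural lists, the library labelled Trp53 het 3 was the lowest of its group and Llgl/Trp53 mutant 1 the highest of its group. Type I hair keratins summed to 325, 254 and 165 CPM in Trp53 het and 52.3, 29.9 and 29.2 CPM in Llgl/Trp53 mutant. Type II hair keratins summed to 226, 173 and 59.6 CPM against 13.2, 5.21 and 5.44 CPM. Inner root sheath and companion layer keratins summed to 4102, 3401 and 1747 CPM against 435, 100.2 and 105 CPM. Among the 86 hair structural genes, the library labelled Trp53 het 3 was the lowest of its group for 83 and Llgl/Trp53 mutant 1 the highest of its group for 70. Over all genes tested those numbers were 5789 and 5121 of 14582. In these bulk samples, fewer hair-forming cells and less RNA per such cell cannot be told apart.

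The number of hair calls rested on single libraries. The 25 lower calls became 0 when any 1 of 5 libraries was left out, which were Llgl/Trp53 mutant 2 and 3, Trp53 het 1 and 2 and Control 2. They went to 2 without Control 1, to 4 without Llgl cKO 3, to 15 without Llgl cKO 1 and to 18 without Llgl/Trp53 mutant 1. There were 54 without the library labelled Trp53 het 3, 60 without Control 3 and 75 without both, of 87 tested each time, and the last of these fits called 3.77% of all its genes lower. DESeq2 called 75 of 86, a test against a minimum 2-fold change 0, and the fit with no low-count filter 1 of 92. With the replicate number as a block, 69 of 86 were lower calls over 12 libraries and 59 of 71 over the 6 libraries. Over all genes, DESeq2 called 458 of 14582 lower, and the blocked fits 274 of 14582 and 195 of 13943. The fit without Control 3 called 232 of 14848 genes lower, and that without the library labelled Trp53 het 3 232 of 14851. The 5 fits with 0 hair calls after leaving out 1 library called 13 to 32 of all their genes lower. Leaving out both the library labelled Trp53 het 3 and Llgl/Trp53 mutant 1, the libraries with the highest Trp53 level of their groups, gave 29 of 87. From 80 to 83 of the 86 or 87 genes tested had a negative log2 change in each fit that left out 1 library, and 0 were higher calls except for 1 without Llgl cKO 1.

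Few regulators of the follicle matrix and stem cells were called. Of 16 transcription factors and receptors of the matrix 1 fell, Vdr, which encodes the vitamin D receptor and is needed for later hair cycling. Vdr was at 179, 169.6 and 143 CPM in Trp53 het and 90.1, 79.1 and 89.8 CPM in Llgl/Trp53 mutant. All 3 Llgl/Trp53 mutant libraries were close together and below the others (log2 change -0.93 ± 0.19 SE, adjusted p = 0.0471). Hoxc13 and Msx2, homeobox factors that drive hair keratin genes, had log2 changes of -0.60 and -0.996 with adjusted p of 0.4 and 0.184. Lef1, the Wnt effector of the matrix, was at 22.8, 20.9 and 41.7 CPM against 69.8, 63.02 and 58.4 CPM, above without overlap and not called (log2 change 1.15 ± 0.28 SE, adjusted p = 0.066). Of 14 stem and upper follicle genes 1 rose, Lgr6, an R-spondin receptor of upper follicle stem cells, which was at 189.9, 201 and 189.7 CPM against 316, 257 and 321 CPM (log2 change 0.62 ± 0.14 SE, adjusted p = 0.0495). Krt15, Krt17 and Krt79, keratins of the bulge, outer sheath and gland duct, had log2 changes of 0.08, -0.22 and -0.32, and none was called.

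Sebaceous gland genes formed the next group of lower calls. Of 17 tested, 9 fell and 0 rose, 10 were below without overlap and the median was -1.65. Scd1 (ENSMUSG00000037071, chromosome 19, 44394455 to 44407879), which encodes a stearoyl-CoA desaturase, was at 321, 238 and 258 CPM in Trp53 het and 93.1, 71.05 and 51.99 CPM in Llgl/Trp53 mutant. Soat1, which esterifies cholesterol for storage, was at 60.5, 45.2 and 62.2 CPM against 20.2, 14.6 and 11.9 CPM. Fa2h, a fatty acid 2-hydroxylase, was at 77.9, 41.4 and 33.7 CPM against 9.81, 5.38 and 1.84 CPM. The library labelled Trp53 het 3 was the lowest of its group for 14 of the 17 genes but not for Scd1 or Soat1, and Llgl/Trp53 mutant 3 was the lowest library for all 3. The log2 changes were -1.92 ± 0.28 (SE, adjusted p = 0.00996), -1.84 ± 0.32 (adjusted p = 0.0288) and -3.16 ± 0.57 (adjusted p = 0.0362). The fatty acid elongase gene Elovl3 (-2.48), the lipid droplet genes Cidea (-1.78) and Plin2 (-1.17) and the wax ester synthase gene Awat2 (-2.01) also fell. So did Pparg (-1.37), the receptor that drives sebocyte and fat cell differentiation, and the melanocortin receptor gene Mc5r (-3.22). Dgat2, Acsbg1 and Far2, genes of lipid enzymes, had log2 changes of 0.04, -0.06 and -0.25 and were not called. The 9 calls became 0 without Llgl/Trp53 mutant 2, Llgl/Trp53 mutant 3 or Trp53 het 1, 1 without Trp53 het 2, 2 without Control 2, 4 without Control 1 and 5 without Llgl/Trp53 mutant 1. They were 9 without the library labelled Trp53 het 3, 8 without both that library and Llgl/Trp53 mutant 1, 10 by DESeq2, 4 in a fit of the 6 libraries alone and 0 with a minimum 2-fold change. Over all genes, DESeq2 called 458 of 14582 lower and the fit of the 6 libraries 86 of 13943.

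Ligands and antagonists that shape the follicle were divided. Of 25 Wnt genes 3 rose and 1 fell. Wnt10b, a ligand that promotes follicle growth, was at 57.8, 62.4 and 68.1 CPM in Trp53 het and 98.4, 88.2 and 90.8 CPM in Llgl/Trp53 mutant. Wnt6 was at 43.6, 37.6 and 47.7 CPM against 60.8, 72.2 and 72.5 CPM. Sp5, a transcription factor gene induced by Wnt signals, was at 1.29, 1.599 and 3.54 CPM against 10.4, 7.43 and 6.95 CPM. The ligand changes were small but tight, with every Llgl/Trp53 mutant library above every Trp53 het library. Of 24 alternative analyses, Wnt10b lost its call in 10, Wnt6 in 9 and Sp5 in 12, each of them in the fit of the 6 libraries alone. The log2 changes in the main fit were 0.56 ± 0.10 (SE, adjusted p = 0.0321) for Wnt10b, 0.67 ± 0.12 (adjusted p = 0.0362) for Wnt6 and 1.91 ± 0.40 (adjusted p = 0.0465) for Sp5. Sfrp1, a secreted Wnt antagonist, fell from 26.4, 27.6 and 23.2 CPM to 9.42, 5.64 and 3.098 CPM (log2 change -2.08 ± 0.44 SE, adjusted p = 0.0476). The ligand Wnt5a was at 12.6, 14.2 and 15.1 CPM against 6.59, 1.96 and 4.94 CPM and was not called (log2 change -1.63 ± 0.53 SE, adjusted p = 0.166). Axin2, a common Wnt target, had a log2 change of 0.15 (adjusted p = 0.807), and the list median was 0.31.

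Of 16 BMP genes 2 rose and 2 fell, with a median of -0.05. Bmp2, a ligand of the matrix and epidermis, was at 44.1, 37.1 and 44.3 CPM in Trp53 het and 82.3, 96.5 and 91.01 CPM in Llgl/Trp53 mutant. Fst, which encodes the activin and BMP antagonist follistatin, was at 90.9, 105 and 84.4 CPM against 134, 137 and 145 CPM. Id4, a BMP-responsive inhibitor of basic helix-loop-helix factors, was at 73.7, 56.8 and 53.7 CPM against 32.5, 34.7 and 22.7 CPM. Groups did not overlap for any of them, and the ligand and its antagonist rose together, with log2 changes of 1.10 ± 0.16 (SE, adjusted p = 0.0118) and 0.57 ± 0.12 (adjusted p = 0.0465), against -1.04 ± 0.22 (adjusted p = 0.0476) for Id4. Bmp8a also fell (-3.38). Id1, Id2 and Id3, the common BMP target genes, had log2 changes of 0.10, -0.16 and 0.11 and were not called. Of 45 genes in the hedgehog and ectodysplasin, Notch, EGFR, and YAP and TAZ lists, 0 were called by edgeR. In those lists 6 had an unadjusted p below 0.05, against 15.4% of all genes tested, and DESeq2 called 1 higher and 2 lower.

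**Figure D2:**
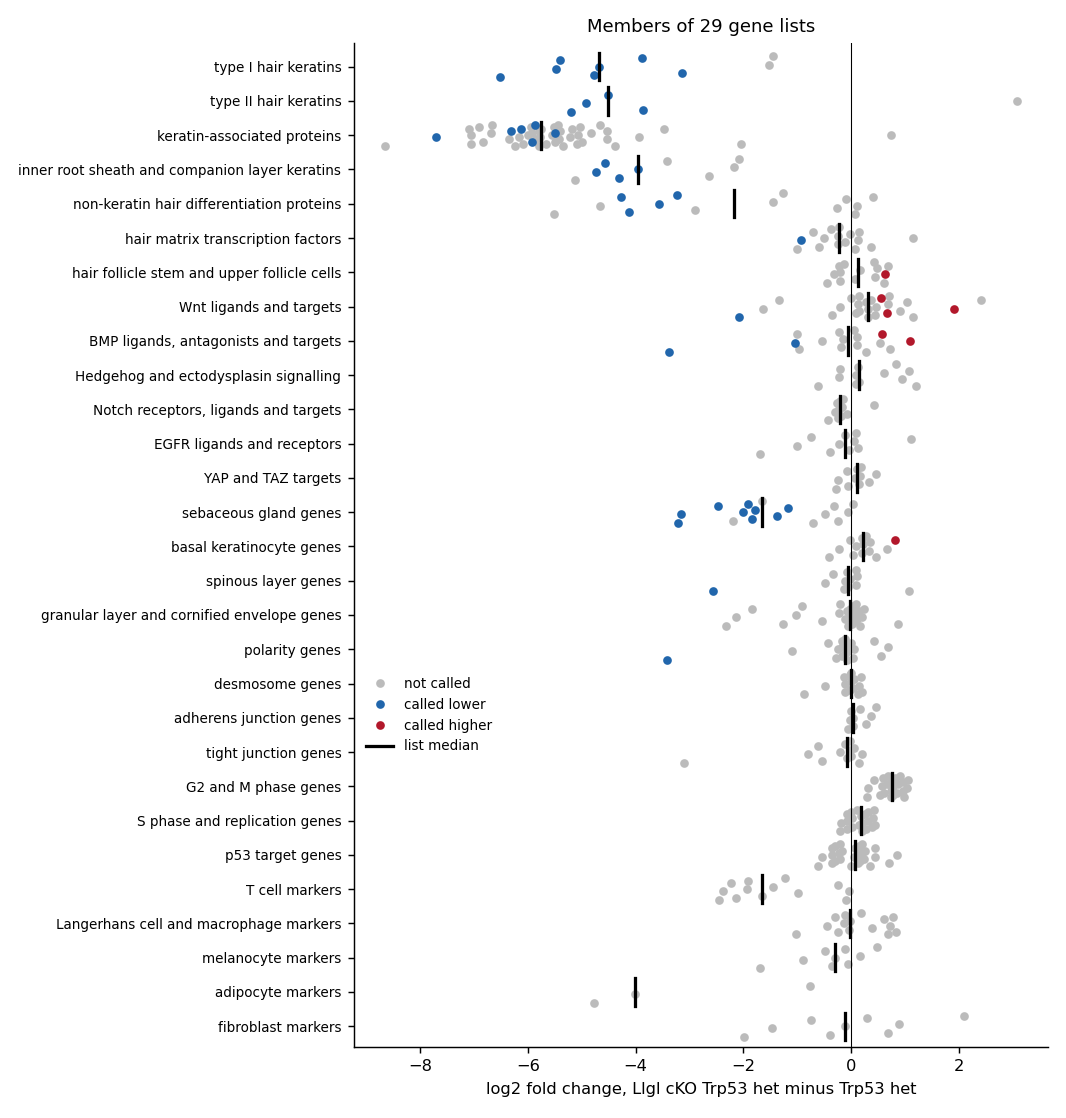
Log2 fold change (Llgl/Trp53 mutant minus Trp53 het) of every tested member of 29 gene lists, with blue for lower calls, red for higher calls, grey for genes not called and a black bar for the list median. The hair lists lie far left of 0, with medians of -4.68, -4.51, -5.75, -3.96 and -2.18, the sebaceous list has a median of -1.65, and the epidermal layer, polarity and junction lists cluster around 0.

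The layers of the epidermis itself held few calls. Of 12 spinous layer genes 1 fell, the metallothionein gene Mt4, which was at 7.94, 6.25 and 7.83 CPM against 1.49, 1.37 and 0.837 CPM (log2 change -2.57 ± 0.49 SE, adjusted p = 0.0365). Its groups did not overlap. Krt5, Krt1 and Krt10, the main keratins of basal and suprabasal cells, had log2 changes of 0.03, 0.10 and 0.11. Across 41 entries of the granular, cornified envelope and acylceramide lists, several of them separate identifiers of the filaggrin gene, 0 were called by edgeR, 8 had an unadjusted p below 0.05 and DESeq2 called 5 lower. Lor, which encodes the envelope protein loricrin, had a log2 change of 0.17 ± 0.45 (SE, adjusted p = 0.904). Krt13, a keratin of internal stratified epithelia such as the oesophagus, rose at a low level, from 0.554, 0.145 and 0.527 CPM to 1.81, 3.42 and 1.84 CPM (log2 change 2.40 ± 0.51 SE, adjusted p = 0.0476).

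Among 19 polarity genes the targeted Llgl2 was the only call by edgeR, and DESeq2 called 1 higher and 2 lower. Scrib and Dlg1, which act in a complex with Llgl, had log2 changes of -0.07 and 0.03. Pard3 and Prkci, of the opposing apical complex, had -0.23 and -0.11 (adjusted p = 0.845, 0.912, 0.453 and 0.676 for the 4 genes). In 37 desmosome, adherens junction and tight junction genes 0 were called by edgeR, 6 had an unadjusted p below 0.05 and DESeq2 called 1 lower, with a median of -0.01. In 24 planar polarity and spindle orientation genes edgeR called 0, 3 had an unadjusted p below 0.05 and DESeq2 called 3 lower. For scale, 15.4% of all genes tested had an unadjusted p below 0.05, and DESeq2 called 264 higher and 458 lower of 14582. EdgeR also called 0 of 13 stress keratin and alarmin genes (5 at an unadjusted p below 0.05, DESeq2 2 higher and 1 lower), 0 of 20 cholesterol synthesis genes (5, and 2 lower), 0 of 18 glycolysis and hypoxia genes (4, and 1 lower), 0 of 14 endoplasmic reticulum stress genes (6, and 1 lower) and 0 of 13 interferon-stimulated genes (3, and 0).

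Cell cycle genes separated the libraries but not the groups. All 25 genes of G2 and M phase had a positive log2 change, with a median of 0.76, yet 0 were called by edgeR, 0 by DESeq2, 0 had an unadjusted p below 0.05, and all 25 overlapped. Mki67, which marks cycling cells, was at 65.8, 64.7 and 433 CPM in Trp53 het and 225, 204 and 277 CPM in Llgl/Trp53 mutant. Cdk1, the mitotic kinase, was at 13.2, 15.3 and 85.2 CPM against 51.3, 59.8 and 70.7 CPM. Summed over the list, the levels were 425, 445 and 2250.5 CPM in Trp53 het and 1455, 1637 and 1834 CPM in Llgl/Trp53 mutant. The library labelled Trp53 het 3, the library lowest for hair transcripts in its group, was the highest of all 6 for the summed list, and Trp53 het 1 and 2 were the lowest. Without Control 3 and the library labelled Trp53 het 3, all 25 were higher calls, in a fit that called 3.6% of its genes higher. Without the library labelled Trp53 het 3 alone 1 of the 25 was called, in a fit that called 90 of 14851 genes higher. All 25 then had both remaining Trp53 het libraries below every Llgl/Trp53 mutant library, as did 3213 of all 14582 genes tested. Of 21 S phase genes 0 were called by either tool and 0 had an unadjusted p below 0.05. Of 27 p53 target genes 0 were called by edgeR or DESeq2, 1 had an unadjusted p below 0.05 and the median was 0.08. Cdkn1a, the cell cycle inhibitor induced by p53, had a log2 change of -0.17 ± 0.24 (SE, adjusted p = 0.799).

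Markers of other cell types differed between libraries without being called by edgeR. Of 60 such genes tested, 0 were called by edgeR, and DESeq2 called 1 higher and 6 lower, against 264 higher and 458 lower of all 14582. An unadjusted p below 0.05 was found for 18 of the 60, against 15.4% of all genes tested. T cell markers, of which 13 of 14 passed the filter on low counts, had a negative log2 change in all 13 (median -1.66). They summed to 67.9, 58.3 and 22.7 CPM in Trp53 het and 31.2, 15.2 and 21.4 CPM in Llgl/Trp53 mutant, with the library labelled Trp53 het 3 inside the other group's range. Of the 13, 7 had an unadjusted p below 0.05, 1 was below without overlap and DESeq2 called 3 lower. With intact Trp53 the T cell median was -1.47, and 7 of the 13 were below without overlap, against 774 of all 14582 genes. Adipocyte markers, of which 3 of 9 passed, summed to 24.6, 24.3 and 15.8 CPM against 5.73, 8.54 and 5.94 CPM, below without overlap in the sum. Their median log2 change was -4.01, all 3 had an unadjusted p below 0.05 and DESeq2 called 2 lower. Fibroblast markers summed to 226, 267 and 606 CPM against 637, 625 and 711 CPM, above without overlap in the sum, while 5 of the 9 tested members were negative. Endothelial and mural markers, of which 2 of 10 passed, summed to 55.4 to 61.7 CPM in Trp53 het and 39.4 to 52.1 CPM in Llgl/Trp53 mutant. Those 2 were below without overlap. The 1 of 8 mast cell markers that passed was at 37.6 to 48.3 CPM against 43.96 to 48.2 CPM. Of the listed endothelial and mural markers Emcn and Rgs5, and of the mast cell markers Ms4a2, had 0 counts in all 6 libraries. Mitochondrial mRNAs, a measure of RNA quality, had a median of 0.35, and 0 of 8 were called by edgeR or DESeq2, with 1 at an unadjusted p below 0.05. The part of these markers in the hair and sebaceous results was not tested.

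A separate set of genes was present in Trp53 het and near absent in Llgl/Trp53 mutant, or the reverse. Skint genes encode butyrophilin-like proteins of keratinocytes and thymus, the founder of which is needed for a skin T cell lineage. Of 11 tested, 4 fell. Skint3 (ENSMUSG00000070868, chromosome 4, 112232245 to 112300468) was at 93.7, 78.9 and 36.96 CPM in Trp53 het and had 0 counts in all 3 Llgl/Trp53 mutant libraries, a level at least 802-fold lower when the group is given the 3 counts that 0 allows (adjusted p = 0.00114). Skint9 was at 199, 195 and 75.2 CPM against 0.0785, 0 and 0 CPM, with a ratio of summed counts of 5275 (exact 95% binomial interval 946.2 to 208385). Skint6 was at 71.6, 65.99 and 34.2 CPM against 2.04, 2.82 and 2.01 CPM (log2 change -4.64 ± 0.44 SE, adjusted p = 0.000671). Skint4 followed the same pattern, while Skint1, the founder, was at 37.7, 33.1 and 22.7 CPM against 20.8, 26.04 and 21.8 CPM and was not called (adjusted p = 0.279).

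In the stefin A cluster on chromosome 16, which encodes cysteine protease inhibitors, a pair of nearby genes moved in opposite directions. Stfa1 (36276951 to 36285373) was at 169, 171 and 313 CPM in Trp53 het and 1.57, 2.39 and 2.01 CPM in Llgl/Trp53 mutant. BC117090 (36321665 to 36334332) was at 4.43, 5.67 and 9.49 CPM against 103, 175 and 117 CPM. Stfa1 was low and BC117090 high in each Llgl/Trp53 mutant library, with log2 changes of -6.77 ± 0.51 (SE, adjusted p = 0.000278) and 4.31 ± 0.36 (adjusted p = 0.000302). The 4 other tested members of the cluster were not called. Eno1b, an enolase gene copy on chromosome 18, was at 21.3, 20.1 and 19.1 CPM against 0, 0.342 and 0.167 CPM (log2 change -6.84 ± 0.50 SE, adjusted p = 0.000249). Stefin A genes, and Eno1b with Eno1, are near-identical copies between which reads can be split, so these counts are uncertain. Skint3, Skint9, Skint4, Skint6, Stfa1, BC117090, Eno1b, the clone-named RP23-349J3.8 and Llgl2 were called in all 24 alternative analyses. They had the same direction in Llgl cKO against Control, where Skint9 was at 65.1, 202 and 165 CPM in Control and 0, 0 and 0 CPM in Llgl cKO, and Stfa1 at 101, 180.3 and 335 CPM and 1.37, 1.53 and 2.202 CPM.

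**Figure D3:**
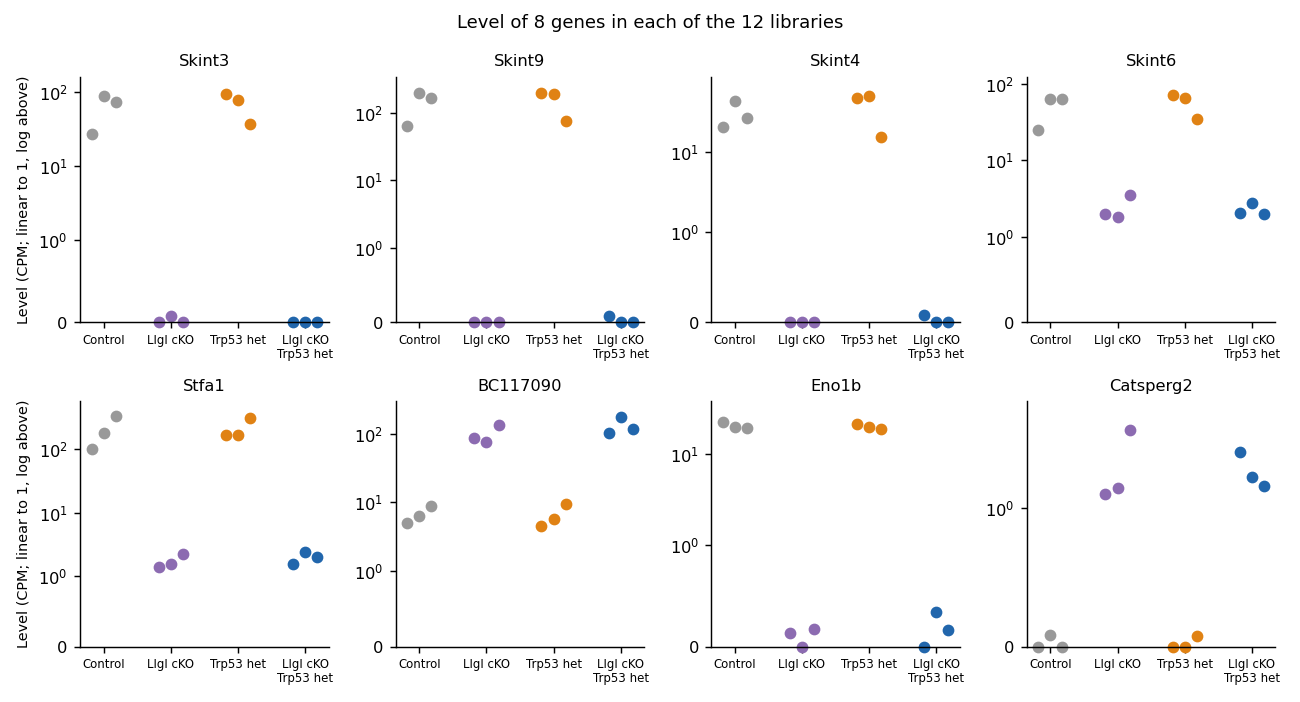
CPM of 8 genes in each of the 12 libraries, on an axis that is linear from 0 to 1 and logarithmic above, with a point per library in replicate order. Skint3, Skint9, Skint4, Skint6, Stfa1 and Eno1b are low in both Llgl-deficient groups on either Trp53 background, with Stfa1 at 1.57 to 2.39 CPM in Llgl/Trp53 mutant, and BC117090 and Catsperg2 are high there.

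The remaining genes named by rule rose by smaller amounts or from low levels. Catsperg2, which encodes a subunit of a sperm calcium channel, was at 0, 0 and 0.0753 CPM in Trp53 het and 2.83, 1.79 and 1.51 CPM in Llgl/Trp53 mutant, a ratio of summed counts of 63.9 (exact 95% binomial interval 11.1 to 2556). Pde2a, a cyclic nucleotide phosphodiesterase, was at 2.22, 1.74 and 1.51 CPM against 6.59, 10.8 and 7.28 CPM (log2 change 2.17 ± 0.31 SE, adjusted p = 0.00974). Dbi, which encodes the acyl-CoA-binding protein, was at 105, 87.5 and 142 CPM against 244, 329 and 278 CPM (log2 change 1.35 ± 0.24 SE, adjusted p = 0.0322). Pde2a and Dbi were higher in every Llgl/Trp53 mutant library, as were Ascl4, a basic helix-loop-helix gene (log2 change 2.04), Ccdc80, an extracellular matrix gene (2.19), the nucleotide hydrolase gene Hddc3 (2.24) and the phospholipid transfer protein gene Pltp (1.28). Arhgap26, a GTPase-activating protein gene, was at 1.38, 1.16 and 1.88 CPM against 3.296, 4.697 and 10.5 CPM. Tmem100, a membrane protein gene, was at 2.22, 2.03 and 2.86 CPM against 8.48, 7.26 and 7.62 CPM. Lyplal1, Prr15l, Serpina3i and the mitochondrial leucine tRNA gene mt-Tl1 rose with log2 changes of 1.76, 1.58, 1.32 and 1.75. Among lower genes, Upp1, a uridine phosphorylase, fell from 7.76, 4.36 and 2.41 CPM to 0.0785, 0 and 0 CPM, a ratio of summed counts of 171 (30.3 to 6817). Slc4a1, an anion exchanger best known from red cells, was at 7.48, 4.22 and 2.18 CPM against 0.0785, 0 and 0 CPM, a ratio of 163 (28.8 to 6493). Fam26d also fell (-6.03).

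**Figure D4:**
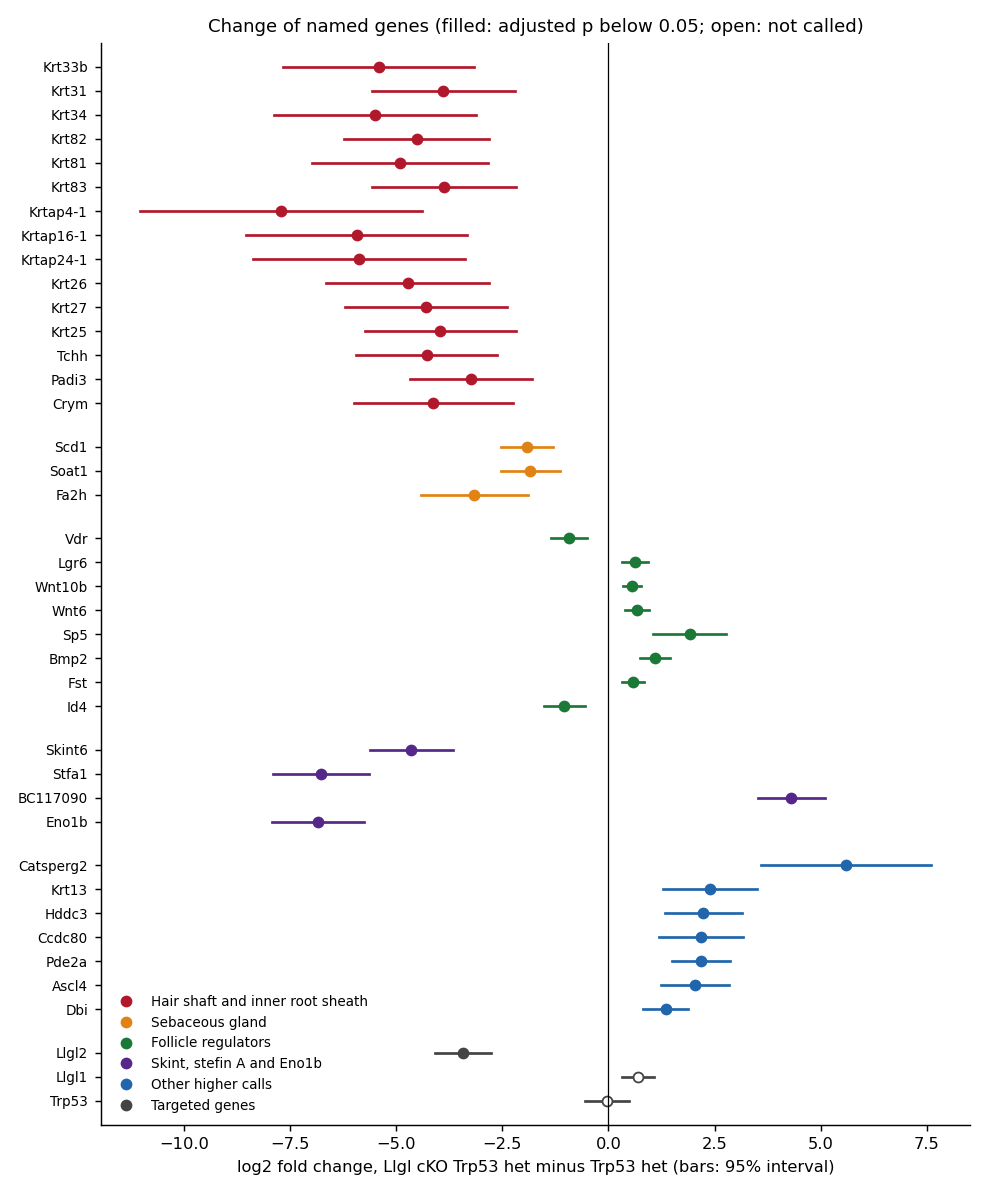
Log2 fold change (Llgl/Trp53 mutant minus Trp53 het) of 40 named genes, grouped by role and colour, with bars for the 95% interval and open circles for genes not called. Hair genes lie between -7.71 and -3.24, the rises of Wnt10b and Wnt6 are small with narrow intervals, and Llgl1 and Trp53 are not called.

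The same Llgl comparison with both Trp53 alleles intact uses other mice, so the 2 sets of changes share no library. With intact Trp53, 33 genes were called (0.226%), and 30 of these are among the 198. Of the 198 genes, 195 had the same sign on both backgrounds, against 10129 of all 14582 genes tested (69.5%). Of the 86 hair structural genes 83 had the same sign, with a median of -5.08 on the Trp53 heterozygous and -2.24 on the intact background, and 0 were called there. Krt26 was at 119, 114 and 23.3 CPM in Control and 22.5, 61.4 and 14.3 CPM in Llgl cKO, a log2 change of -1.38 against -4.73 on the heterozygous background. Tchh was at 2343, 1526 and 405 CPM and 189.8, 834 and 361 CPM, a log2 change of -1.63 against -4.28. Llgl cKO 2 was the highest of its group for 75 of the 86 genes and Control 3 the lowest of its group for 82, and 1 of the 86 was below without overlap. Over all genes tested those numbers were 4366, 5704 and 774 of 14582. The sebaceous list had a median of -1.65 on the heterozygous and -0.32 on the intact background. Scd1 was at 189.7, 239 and 216 CPM in Control and 125, 264 and 163 CPM in Llgl cKO.

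The difference between the 2 backgrounds, tested as an interaction, was called for 0 of 14582 genes by edgeR and by DESeq2. An unadjusted p below 0.05 was found for 428 genes by edgeR (2.94%), and the smallest adjusted p was 1.00. The interaction was -3.35 (95% interval -5.77 to -0.94) for Krt26, -2.65 (95% interval -4.74 to -0.56) for Tchh and -1.69 (95% interval -2.53 to -0.86) for Scd1, where a negative value is a larger decrease on the heterozygous background. Of the 86 hair structural genes 81 had a negative interaction, and 29 of the 86 (33.7%) had an unadjusted p below 0.05. Of 17 sebaceous genes 16 were negative and 8 had an unadjusted p below 0.05. For Llgl2 the interaction was -0.04 (95% interval -0.91 to 0.83) and for Skint6 -0.26 (95% interval -1.54 to 1.02). A difference between the backgrounds in hair or sebaceous genes therefore did not pass adjustment over all genes. The heterozygous side of each interaction includes the library labelled Trp53 het 3, whose Trp53 level was that of the intact libraries.

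**Figure D5:**
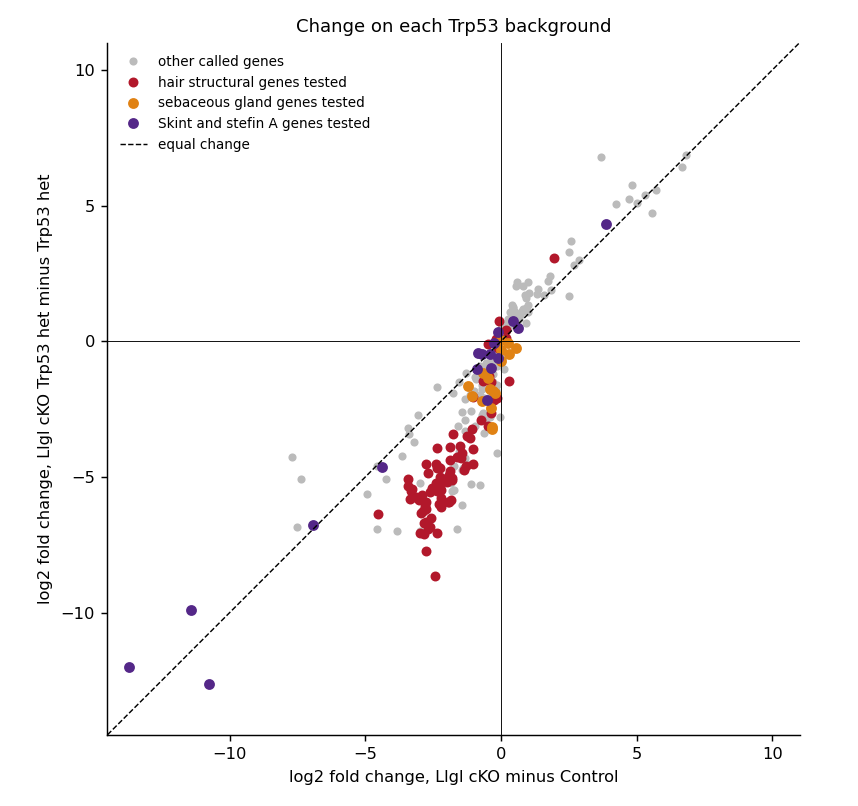
Log2 fold change of Llgl cKO minus Control (horizontal) against Llgl/Trp53 mutant minus Trp53 het (vertical), a point per gene, for the tested hair, sebaceous, Skint and stefin A genes and the other called genes, with a dashed line of equal change. Most hair genes lie below the line, with medians of -2.24 and -5.08, and the Skint and Stfa1 points lie near it.

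Some called genes lay together in the genome. Chromosome 11 held 37 calls among 1251 tested genes (2.96%), against 1.36% over all genes. Between 98646759 and 100121566 of chromosome 11 (GRCm38), the type I keratin and keratin-associated protein cluster, 18 of 69 tested genes were called, 17 lower and Krt13 higher. Between 101431038 and 101743109 of chromosome 15, the type II keratin cluster, 6 of 14 were called, all lower. On chromosome 4, 4 of 6 tested genes between 112072016 and 113286973 were called, the Skint genes. The 3 of 3 called between 108879063 and 108972077 were Rab3b and 2 genes that overlap it, Gm12736 and 8030443G20Rik, so their reads may be mixed. Each of these spans was set by its first and last called gene, so the share called within it is high by construction. Within 10 Mb of the targeted genes the share called was 1.74% around Llgl2, 1.14% around Llgl1 and 0.333% around Trp53.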

How the data were processed

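RNA of newborn mouse epidermis was measured in 12 libraries. Libraries came from a stranded mRNA kit, per the labels. The submitters' processing notes name DESeq2 2.11.40.8, featureCounts 1.6.4, STAR and the build GRCm38. Annotation release, strand setting and filters are not given in the sources used here, so reads of overlapping and antisense genes may be mixed. The authors deposited raw counts per gene, whole numbers for 46078 genes, and every column was used. Symbols came from the table. Positions came from a GRCm38 annotation (14532 of 14582 tested identifiers matched) and promoters from RefSeq GRCm38.p6. Identifiers that share a symbol, 214 symbols in all, were kept apart.

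Counts were scaled by TMM and filtered by filterByExpr (minimum count 10). In R 4.3.3, edgeR 4.0.16 fitted a robust quasi-likelihood model to all 12 libraries with 4 group means (8 residual degrees of freedom, biological coefficient of variation 23.8%). Adjustment was by Benjamini-Hochberg over all genes tested. SEs are the log2 change divided by the square root of F. The test was also run on simulated counts, drawn independently for each gene and library with no outlying library. That run does not bear on calls that rest on single libraries. Alternatives were DESeq2 1.42.0, other scalings and filters, a minimum 2-fold change, the 6 libraries alone, sex, a replicate block and leaving out libraries. Intervals on ratios of summed counts cover counting error only.

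The members, 47 gene lists and tests were chosen with earlier results of these data known. Genes named were the targeted genes, the 15 largest calls per direction with at least 1 CPM and a symbol that is not a predicted (Gm), Rik, AC, AL, BC, CT or CAAA clone or -ps name (the pseudogene RP23-349J3.8 passed this rule on symbols), and the 3 members with the smallest p of each list with at least 2 calls, or the called member of a list with fewer. List members, marker genes and called genes named beyond that were chosen after their values were seen. Labels give no batch. A few genes of the lists are not reported here.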

Additional observations from a re-analysis of the deposited data

How the results depend on the processing

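The 198 calls (64 higher, 134 lower) depended on the tool and on single libraries. DESeq2 called 722 genes (264 and 458), a minimum 2-fold change 20 (6 and 14) and a fit of the 6 libraries alone 117 (31 and 86). Leaving out both Control 3 and the library labelled Trp53 het 3 gave 1088 calls (532 and 556), a split of 51.1% lower against 67.7%. Leaving out each library in turn gave 24 (without Trp53 het 1 or Llgl/Trp53 mutant 3) to 322 calls (without Control 3 or the library labelled Trp53 het 3), 8 to 90 higher and 13 to 232 lower. The total was 32 without Trp53 het 2, 44 without Llgl/Trp53 mutant 2, 50 without Control 2 and 89 without Control 1. Lower calls made up 52.3% when Llgl/Trp53 mutant 2 was left out and 54.2% when replicate 3 of that group was. Same-numbered libraries had correlations of -0.10, 0.16 and 0.17 between their deviations from the group means, so the replicate numbers were not taken to pair the samples. With a replicate block over 12 libraries there were 376 calls (102 and 274), and over the 6 libraries 235 (40 and 195), 83.0% lower. The interaction stayed at 0 calls in each alternative that could give it (not the fits of 6 libraries). Scalings, a CPM filter, no filter, sex as a term and the fit without the female libraries of both groups gave 161 to 217 calls. Trp53 turned positive, never called, in 6 alternatives, at 0.33 without the library labelled Trp53 het 3 with or without Control 3, 0.12 without the female libraries, 0.07 without Llgl/Trp53 mutant 3, 0.04 without Llgl/Trp53 mutant 2 and 0.0019 with a replicate block over 6 libraries, and it was -0.25 without Llgl/Trp53 mutant 1. Llgl1 was called by DESeq2 (adjusted p = 0.00862) and without Control 3 (0.0492). Of 24 alternatives, Lgr6 lost its call in 18, Fst in 17, Krt13 in 16, Sp5 and Id4 in 12 and Vdr in 11. Wnt10b lost its call in 10, Wnt6 in 9, Soat1 and Bmp2 in 5, Scd1 in 4 and Pde2a in 2. Genes with 0 to 3 counts in a group, among them Skint3, Skint9, Krtap4-1 and Upp1, have a lower bound or a wide interval and no precise fold at this depth.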

Other observations

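The calls given here are outside the lists and were named after their values were seen, so they stand for no group. Elovl6, which elongates fatty acids, was at 269, 246 and 231 CPM in Trp53 het and 121, 104 and 102 CPM in Llgl/Trp53 mutant (log2 change -1.19 ± 0.18 SE, adjusted p = 0.0141). Crat, a carnitine acetyltransferase, was at 40.9, 41.7 and 33.7 CPM against 14.4, 13.7 and 12.6 CPM. Cers4, a ceramide synthase, was at 47.8, 40.6 and 48.6 CPM against 20.2, 11.3 and 8.29 CPM. None of the 3 overlapped between groups, and Crat and Cers4 had log2 changes of -1.51 and -1.78. The ceramidase gene Acer2 fell on both backgrounds, from 48.1, 26.9 and 38.1 to 14.8, 12.98 and 12.6 CPM here and from 34.2, 39.6 and 38.7 to 12.1, 11.8 and 15.1 CPM in Llgl cKO against Control (adjusted p = 0.00621 and 0.00535). Hsd3b6, a steroid dehydrogenase gene, was at 16.3, 13.5 and 9.33 CPM against 3.77, 1.54 and 1.76 CPM and fell (-2.46). Beside Vdr, the vitamin D-degrading enzyme gene Cyp24a1 fell from 1.02, 1.31 and 3.84 to 0.0785, 0.0854 and 0.167 CPM (log2 change -4.14 ± 0.77 SE, adjusted p = 0.0365).

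Cyp2g1, a cytochrome P450 gene, had one of the larger changes at a moderate level, from 103, 107 and 81.2 CPM to 10.99, 12.4 and 9.96 CPM (log2 change -3.13 ± 0.38 SE, adjusted p = 0.00523), and with intact Trp53 it was at 104, 84.8 and 67.7 CPM in Control and 41.7, 70.7 and 19.6 CPM in Llgl cKO. Acadl, an acyl-CoA dehydrogenase gene, and Npc2, which encodes a cholesterol-binding protein, rose with log2 changes of 0.95 and 0.51. Among other higher calls, Sparc, which encodes a matrix glycoprotein, rose from 113, 131 and 107 to 211, 257 and 293 CPM, and Dera, a deoxyribose phosphate aldolase gene, from 18.9, 20.2 and 19.7 to 45.4, 45.9 and 42.8 CPM with log2 changes of 1.19 here and 0.91 with intact Trp53. Ccnd3, a D-type cyclin gene, rose from 101, 86.8 and 86.6 to 131, 125 and 147 CPM and Penk, which encodes proenkephalin, from 65.8, 55.96 and 80.02 to 99.9, 125 and 117 CPM. Of 373 pseudogenes tested 17 were higher calls and 3 lower (5.36%, against 1.36% of all genes), and reads that fit a parent gene and its copy make these counts uncertain.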
